A study of Mus musculus with 4 samples.

Results

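DnaJ proteins, also called Hsp40 proteins or J proteins, are the co-chaperones that bring client proteins to Hsp70 and start its ATP hydrolysis through their J domain, which carries a conserved His-Pro-Asp motif. Members of the A family have a J domain, a glycine and phenylalanine rich stretch and a zinc finger, those of the B family lack the zinc finger, and those of the C family share little beyond the J domain. In the lens, fiber cells fill with crystallins and then lose their organelles, so proteins made early must stay soluble for life.

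The genes described here are the rows of the deposited table whose symbol starts with Dnaja, Dnajb or Dnajc, with pseudogenes left out. They came to 37 of the 10790 genes in the table, of which 4 belong to the A family, 9 to the B family and 24 to the C family. GENCODE M21 lists 45 protein-coding genes with such names, and the other 8 (Dnajb3, Dnajb7, Dnajb8, Dnajb13, Dnajc5b, Dnajc5g, Dnajc22 and Dnajc28) were not analysed here. All 37 passed the filter on low values, a mean of at least 1 over the libraries.

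RNA came from whole lenses of mice at postnatal day 4, and the series compared animals labelled Tdrd7 -/- (called Tdrd7 null or null here) with animals labelled wild type control. TDRD7 is a Tudor-domain protein of RNA granules, and its loss causes cataract. There were 2 libraries per genotype, given as biological replicates, each from a pool of 15 lenses. The sources used here do not give the strain, the sex of the mice, how the Tdrd7 allele was made or whether pools shared animals. The p-values therefore do not measure the spread between animals. They rest on the spread between these 4 pools (2 residual degrees of freedom) and more on a prior. That prior is drawn from all genes and adds 11.1 degrees of freedom.

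Values are scaled reads: within each library they lay close to whole multiples of 1 step. They were therefore taken as counts divided by a single factor and not corrected for gene length. By that inferred step the table held 33920522 to 42767535 reads per library. In its lowest library a member had from 53 reads (Dnajc25) to 7643 reads (Dnajb1), which puts the counting error at 13.7% for Dnajc25 and at 1.14% for Dnajb1. Tdrd7 itself was at 1188 and 972 scaled reads in control and at 165 and 96.6 in null lenses, so the targeted gene went with the labels. All 12 lens fiber markers were measured, with a summed level of 270234 to 307045 scaled reads in which Cryaa was the largest, and Lim2 was called lower. All 5 lens epithelium markers were measured, summing to 292 to 307, with Gja1 called higher and Foxe3 lower. None of the 8 macrophage, 6 erythroid, 7 retina and 6 muscle markers was in the table. Of 8 endothelial markers 7 were measured, summing to 11.9 to 20.5, and 3 of 5 pericyte markers summed to 45.5 and 35.7 in control pools against 30.3 and 33.5 in null pools, with Notch3 and Pdgfrb called lower. The part of such cells in the results below was not tested.

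The genes are compared with each other only per kilobase of their longest annotated transcript. On that scale Dnajb1, the classical heat-inducible Hsp40 of the cytosol, was the most abundant, at 63.8 and 74.4 scaled reads per kb in control pools against 74.2 and 71.8 in null pools. It alone gave 19.6% of the summed level of the 37 genes. Its lowest library stood above the highest library of every other member.

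Dnajc7, a tetratricopeptide co-chaperone that binds both Hsp70 and Hsp90, came next at 32.9 ± 1.58 scaled reads per kb (SD over all 4 libraries, n = 4). Dnajb11, a luminal co-chaperone of the endoplasmic reticulum (ER), followed at 31.1 ± 2.97, Dnajb2 at 27.9 ± 0.596, Dnaja1 at 23.1 ± 3.15 and Dnaja2 at 22.7 ± 2.52. These SDs include the difference between the genotypes. Over all 4 libraries the ranges of Dnajc7 and Dnajb11 overlapped, as did those of Dnajb11 and Dnajb2 and those of Dnaja1 and Dnaja2. In control pools Dnajc7 (31.1 and 32.2) lay above Dnajb11 (28.5 in each), and the 2 overlapped in null pools. In null pools Dnajb11 (32.9 and 34.2) lay above Dnajb2 (27.96 and 27.5), and the 2 overlapped in control pools. Dnaja1 and Dnaja2 overlapped within each genotype and are not told apart in level. These 6 genes together gave 57.5% of the summed level.

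At the other end stood Dnajc25 at 0.427 scaled reads per kb, Dnajb5 at 0.612, Dnajc12 at 0.844 and Dnajc30 at 1.61. The median over the 37 genes was 4.73, against 3.39 over all genes tested. Taking the longest protein-coding transcript in place of the longest transcript kept the first 8 genes in the same order and moved Dnajb4 from place 25 to place 15.

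**Figure D1:**
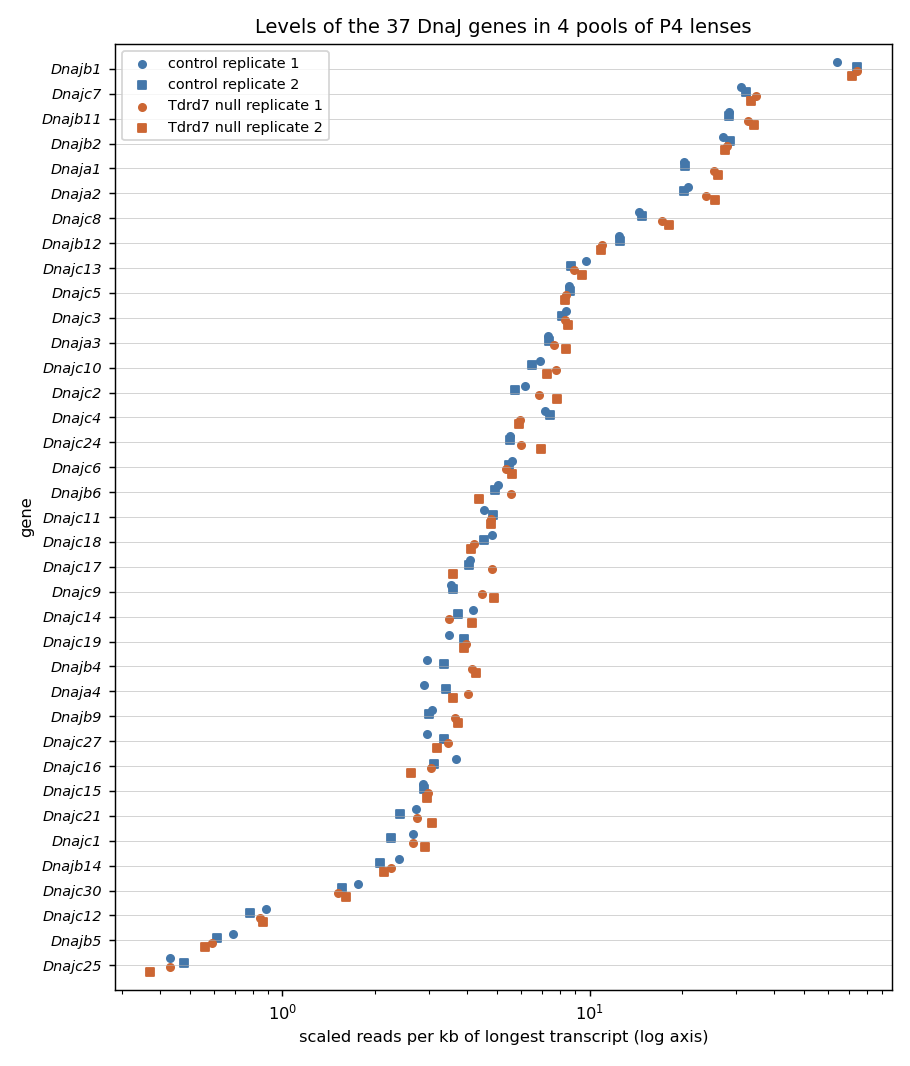
Level of each of the 37 DnaJ genes in scaled reads per kb of the longest transcript (log axis), with 1 point per library: 2 control pools in blue and 2 Tdrd7 null pools in orange. Dnajb1 stands apart at the top, near 71.1, and Dnajc25 is lowest, at 0.427.

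Stretches upstream of the annotated start are shown for 5 members. They were chosen for a match to an element or, for Dnajb11, for its level, so the matches follow from the choice. The heat shock element is read by heat shock factors and the ER stress element by factors of the unfolded protein response. Each stretch is the 150 bases before a RefSeq start (build GRCm38.p6, 5′ to 3′ on the gene's strand), with matches in capitals to GAANNTTC for the heat shock element or to the ER stress element, a CCAAT box followed at a fixed distance by CCACG. Dnaja1, Dnaja4 and Dnajb6 are shown for the first, Dnajc3 for the second, and Dnajb11 as an ER gene whose level differed between the genotypes.

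Dnaja1 at chr4:40722318-40722467, plus strand: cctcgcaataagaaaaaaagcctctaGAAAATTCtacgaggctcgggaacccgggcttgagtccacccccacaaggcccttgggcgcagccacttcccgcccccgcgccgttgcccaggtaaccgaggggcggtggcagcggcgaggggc
Dnaja4 at chr9:54699409-54699558, plus strand: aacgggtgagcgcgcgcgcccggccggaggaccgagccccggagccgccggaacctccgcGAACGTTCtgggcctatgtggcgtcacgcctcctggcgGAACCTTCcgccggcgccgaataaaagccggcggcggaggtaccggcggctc
Dnajb6 at chr5:29735748-29735897, plus strand: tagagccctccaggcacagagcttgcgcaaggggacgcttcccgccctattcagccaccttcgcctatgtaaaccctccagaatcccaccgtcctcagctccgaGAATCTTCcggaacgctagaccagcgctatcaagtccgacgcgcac
Dnajc3 at chr14:118937782-118937931, plus strand: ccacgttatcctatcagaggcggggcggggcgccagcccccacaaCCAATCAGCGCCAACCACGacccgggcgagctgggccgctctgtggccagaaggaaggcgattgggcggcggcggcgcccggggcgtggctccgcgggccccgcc
Dnajb11 at chr16:22857695-22857844, plus strand: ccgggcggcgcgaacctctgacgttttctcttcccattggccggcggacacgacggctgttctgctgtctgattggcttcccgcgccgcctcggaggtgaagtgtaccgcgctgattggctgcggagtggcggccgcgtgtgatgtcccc

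Of the 37 genes 31 matched a RefSeq window of 250 bases before to 50 bases after a start, with 44 windows in all. The heat shock element, which reads the same on both strands, was in 5 of the 44 windows, against 7.86% of all 32851 windows, and these belonged to Dnaja1, Dnaja4, Dnajb6 and Dnajc27. For Dnaja1 it lay upstream of only the first of 3 annotated starts, and Dnaja4 held 2 copies 38 bases apart. A single Dnajb6 site was counted more than once, because the windows of nearby starts overlap. The ER stress element, searched on both strands, was in the window of Dnajc3 alone and in 0.119% of all windows. The unfolded protein response element TGACGTGG, also searched on both strands, was in the window of Dnajc25 alone and in 0.676% of all windows. No match means only that these letters are not in that window.

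Between the genotypes, 7 of the 37 genes were called higher in Tdrd7 null lenses and 2 lower, at a Benjamini-Hochberg adjusted p under 0.05 in limma's test over the whole table. They made up 24.3% of the members, where 18.0% of all 10696 genes tested were called, 10.1% higher and 7.88% lower. The log2 fold changes had a median of 0.04 among the members and of -0.01 among all genes tested. The split of calls over the whole table, 1077 higher and 843 lower, turned to 766 and 1262 when crystallin genes were left out of the scaling, and the members then stood at 7 higher and 3 lower. In these bulk samples fewer cells of a type and less RNA per cell cannot be told apart.

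Both Tdrd7 null libraries lay above both control libraries for 15 of the 37 genes and below them for 7, where 30.2% and 31.3% of all genes tested did so. For the remaining 15 genes the groups overlapped. Replicates of the same genotype differed by a median of 0.08 (control) and 0.06 (Tdrd7 null) on the log2 scale over the members, and the absolute log2 fold change between genotypes had a median of 0.12. Over all genes tested these medians were similar, at 0.079, 0.084 and 0.13.

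**Figure D2:**
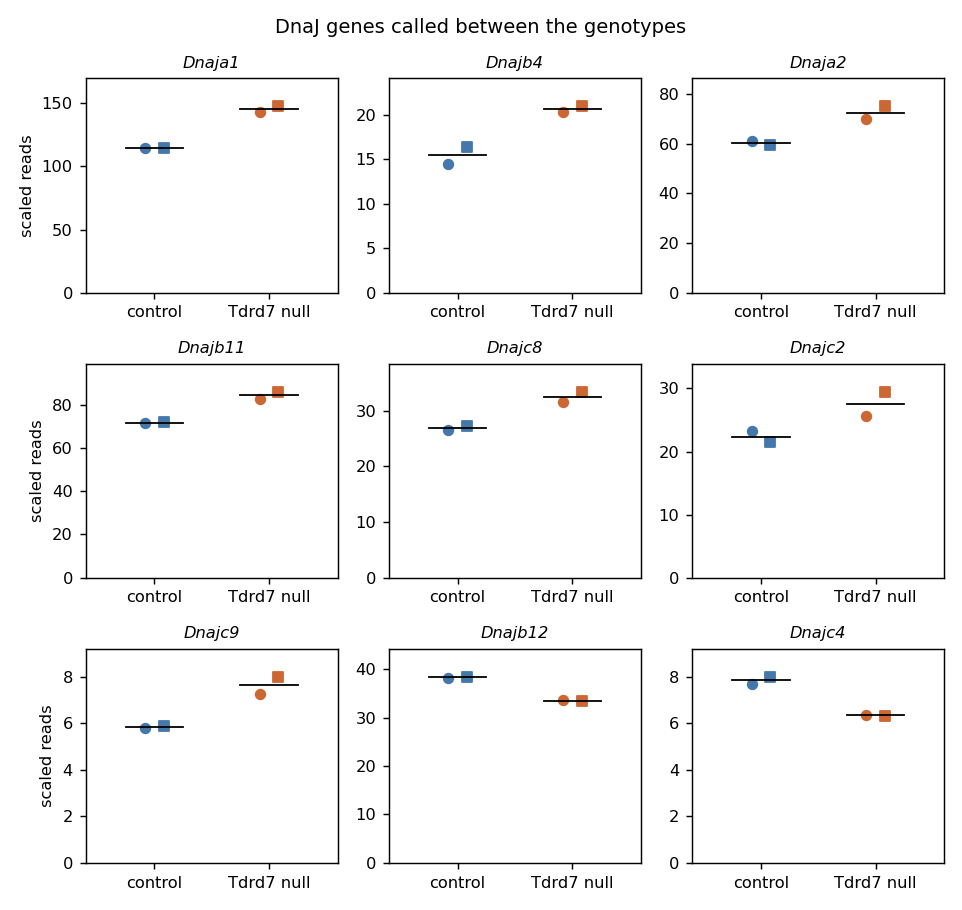
Scaled reads of the 9 DnaJ genes called between the genotypes, in each of the 2 control (blue) and 2 Tdrd7 null (orange) pools, with circles for replicate 1, squares for replicate 2 and a bar at the mean of the 2. The groups do not overlap in any of the 9, which were chosen by their adjusted p in these same libraries. The largest step on the log2 scale is that of Dnajb4, from 14.5 and 16.4 to 20.4 and 20.98.

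The A family holds the general folding co-chaperones of the cytosol and 1 member of mitochondria. Dnaja1 (ENSMUSG00000028410, chromosome 4 from 40722150 to 40737149 in GRCm38) encodes a farnesylated co-chaperone that works with Hsc70 in folding and refolding. It was at 115 scaled reads in both control libraries and at 143 and 148 in null lenses. The control values differed by less than 1 scaled read, and both Tdrd7 null values were higher. It rose by 0.34 on the log2 scale (SE 0.0513, limma adjusted p = 0.00187), and it was called in 16 of 17 alternative analyses.

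Dnaja2 (ENSMUSG00000031701, chromosome 8 from 85537640 to 85555271), its closest relative in role, was at 61.1 and 59.4 in control and at 69.8 and 74.98 in null lenses. It rose by 0.26 on the log2 scale (SE 0.0573, limma adjusted p = 0.00975). Dnaja4, a further cytosolic member, stood at 8.71 and 10.2 in control and at 12.1 and 10.8 in null lenses. Its groups did not overlap, but at a log2 difference of 0.25 (SE 0.0930, limma adjusted p = 0.0819) it did not pass. Dnaja3, also called Tid1 and located in mitochondria, was at 19.4 and 19.5 in control and at 20.3 and 22.2 in null lenses, a log2 fold change of 0.12 (limma adjusted p = 0.253). So 2 of the 4 genes of the family rose, against 10.1% of all genes, and in all 4 both null values lay above both control values, against 30.2% of all genes. The fold change kept its positive sign for each of the 4 under all 17 alternatives. With the GC and length trend described below removed, 1 of the 4 was called. The median log2 fold change of the family then went from 0.25 to 0.16. Dnaja4 also shares exon sequence with Wdr61, a more abundant gene that rose, as given below.

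Among the cytosolic B family members, Dnajb4 (ENSMUSG00000028035, chromosome 3 from 152178511 to 152210279) had the largest change of all 37 genes. This heat-inducible relative of Dnajb1 was at 14.5 and 16.4 scaled reads in control and at 20.4 and 20.98 in null lenses, and it rose by 0.40 on the log2 scale (SE 0.0757, limma adjusted p = 0.00485). Dnajb1, by contrast, was at 191 and 223 in control and at 222 and 215 in null lenses. Its groups overlapped, at a log2 difference of 0.08 (SE 0.0667, limma adjusted p = 0.416), and without control replicate 1 the sign turned to -0.03.

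Dnajb2, which carries ubiquitin-interacting motifs and passes clients to the proteasome, was at 83.6 and 87.8 in control and at 85.7 and 84.4 in null lenses, and its groups overlapped. Dnajb6, a suppressor of protein aggregation, was at 14.7 and 14.4 in control and at 16.2 and 12.8 in null lenses, where the replicates fell on either side of the control values. Dnajb5 was at 3.47 and 3.10 in control and at 2.98 and 2.82 in null lenses, from as few as 100 reads, and did not pass (limma adjusted p = 0.425). Dnajc7 was at 72.5 and 75.1 in control and at 80.9 and 78.4 in null lenses, without overlap, and its log2 fold change of 0.11 did not pass (limma adjusted p = 0.183). Of the 9 measured genes for client folding in the cytosol and nucleus 3 rose (Dnaja1, Dnaja2 and Dnajb4) and 0 fell, with a median log2 fold change of 0.11, where 10.1% of all genes rose. An unadjusted p under 0.05 was found for 4 of the 9, near the 33.1% of all genes.

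The ER members serve the Hsp70 of that compartment, Hspa5 (also called BiP), or face the cytosol from the ER membrane. Dnajb11 (ENSMUSG00000004460, chromosome 16 from 22857845 to 22879634), which binds unfolded proteins in the lumen and hands them to BiP, was at 71.6 and 71.7 in control and at 82.7 and 86.0 in null lenses. It rose by 0.23 on the log2 scale (SE 0.0533, limma adjusted p = 0.0118). Dnajb12 (ENSMUSG00000020109, chromosome 10 from 59879556 to 59899302), a membrane protein of ER-associated degradation, was at 38.3 and 38.5 in control and at 33.7 and 33.4 in null lenses, and fell by 0.19 on the log2 scale (SE 0.0581, limma adjusted p = 0.0398). Of 11 measured ER members these 2 were called, in opposite directions. That is 18.2% of them, near the 18.0% of all genes called.

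Dnajb14, the close relative of Dnajb12, was at 22.6 and 19.7 in control and at 21.3 and 20.2 in null lenses, with groups that overlapped. Dnajb9, an inducible suppressor of the ER stress sensor Ire1, was at 7.57 and 7.403 in control and at 8.99 and 9.18 in null lenses. At a log2 fold change of 0.25 (limma adjusted p = 0.0560) it missed the threshold. Dnajc16 was at 21.9 and 18.6 in control and at 18.2 and 15.7 in null lenses, a log2 fold change of -0.24 (limma adjusted p = 0.0767), and its replicates differed by nearly as much as the genotypes did.

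Dnajc10, a reductase that opens disulfide bonds of misfolded proteins, was at 27.8 and 26.3 in control and at 31.4 and 29.5 in null lenses (log2 fold change 0.17, limma adjusted p = 0.0944). Dnajc3, an inhibitor of eIF2 alpha kinases and a luminal co-chaperone of BiP, was at 43.2 and 41.8 in control and at 42.7 and 43.8 in null lenses. Its groups overlapped and its log2 fold change was 0.03. Dnajc1, Dnajc14, Dnajc18 and Dnajc25 stood at 0.17, -0.05, -0.16 and -0.12 on the log2 scale and did not pass. Over the 11 ER members the median log2 fold change was -0.02, with 5 values above 0 and 6 below it.

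The genes that act at the ribosome, in splicing, on histones and in modifying elongation factor 2 held 3 increases among 6 members, where 10.1% of all genes and 27.2% of those under 45% GC rose, and the median GC content of these 6 was 45.5%. Dnajc8 (ENSMUSG00000054405, chromosome 4 from 132535550 to 132553742), associated with the splicing machinery, was at 26.6 and 27.2 in control and at 31.5 and 33.4 in null lenses. It rose by 0.26 on the log2 scale (SE 0.0626, limma adjusted p = 0.0144). Dnajc2 (ENSMUSG00000029014, chromosome 5 from 21757267 to 21785251), which sits at the ribosome and acts there with the Hsp70 protein Hspa14, was at 23.2 and 21.5 in control and at 25.7 and 29.5 in null lenses. It rose by 0.29 (SE 0.0758, limma adjusted p = 0.0212), although its Tdrd7 null replicates lay further apart than its control replicates.

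Dnajc9 (ENSMUSG00000021811, chromosome 14 from 20384638 to 20388910), a chaperone of histones H3 and H4, was at 5.79 and 5.87 in control and at 7.26 and 7.997 in null lenses. It rose by 0.34 on the log2 scale (SE 0.0919, limma adjusted p = 0.0249). Dnajc24, which takes part in diphthamide synthesis on elongation factor 2, and Dnajc21, a factor of ribosome maturation, stood at 0.20 and 0.15 on the log2 scale, with limma adjusted p of 0.153 and 0.281. Dnajc17, a splicing factor, was at 4.10 and 4.07 in control and at 4.87 and 3.63 in null lenses, so its groups overlapped. All 6 fold changes were above 0, as were 48.9% over all genes. In 5 of the 6 genes both null values lay above both control values, as in 30.2% of all genes. With the GC and length trend described below removed, 0 of the 6 were called. Their median log2 fold change went from 0.23 to 0.09. In that fit 1 of the 6 had an unadjusted limma p under 0.05, beside 18.6% of all genes.

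Among 6 mitochondrial members 1 was called (16.7%), near the 18.0% of all genes called. Dnajc4 (ENSMUSG00000024963, chromosome 19 from 6987911 to 6992503) was at 7.69 and 7.99 in control and at 6.36 and 6.31 in null lenses. It fell by 0.27 on the log2 scale (SE 0.0878, limma adjusted p = 0.0492), close to the threshold. Dnajc19 and Dnajc15, which drive protein import at the inner membrane, stood at log2 fold changes of 0.08 and 0.04, Dnajc11, a partner of the complex that shapes the inner membrane, at 0.02, and Dnajc30 at -0.06, and none of them passed.

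None of the 4 genes of vesicle traffic was called in limma's test, and 0 of them had an unadjusted p under 0.05, where 18.0% of all genes were called and 33.1% had such a p. Dnajc5, the cysteine string protein of secretory vesicles, was at 56.4 and 56.7 in control and at 55.2 and 54.7 in null lenses. The groups did not overlap, but the log2 fold change was only -0.04 (SE 0.0543, limma adjusted p = 0.636). Dnajc13, which works on endosomes, was at 77.9 and 69.5 in control and at 71.3 and 75.6 in null lenses, and its groups overlapped. Dnajc6, the auxilin that uncoats clathrin vesicles, and Dnajc27, a small GTPase with a J domain, stood at -0.02 and 0.07 on the log2 scale. Dnajc12, which helps to fold the hydroxylases of aromatic amino acids and fits in no other group, was at 2.68 and 2.37 in control and at 2.55 and 2.62 in null lenses, with groups that overlapped.

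The genotypes differed in a trend of all genes with the GC content of their transcripts, and the DnaJ genes lay along it. Called members that rose had 41.2% to 50.5% GC, and the 2 that fell had 54.3% and 57.4%. Of the 13 members under 45% GC 5 were called higher and 0 lower (median log2 fold change 0.17), where 27.2% of the 2764 genes tested in that class were called higher (median 0.15). Fold change and GC content had a Pearson's r of -0.55 across the 37 members and of -0.59 across 10656 genes, and a Spearman's rho of -0.53 and -0.62, a description across genes of the same 4 libraries.

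**Figure D3:**
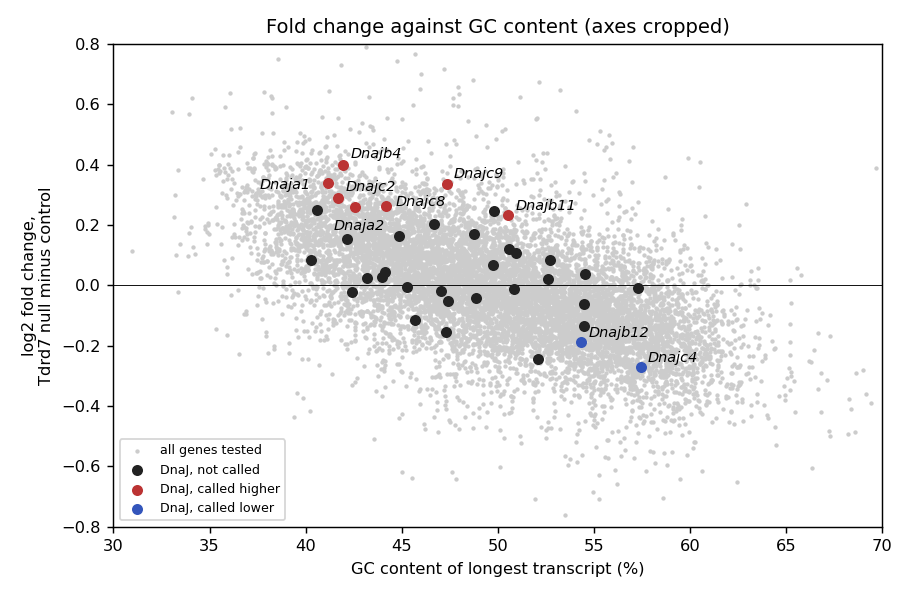
Log2 fold change (Tdrd7 null minus control) against the GC content of the longest transcript in percent, for all genes tested (grey) and the 37 DnaJ genes (black where not called, red where called higher, blue where called lower). The axes leave out 19 of 10656 genes. Dnajb11, at 50.5% GC and 0.23, and Dnajc9, at 47.3% and 0.34, lie toward the upper edge of the grey cloud at their GC content, whereas Dnaja2, at 42.6% and 0.26, lies within it.

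After the trends on GC content and length had been taken out of every library, 2 members were called higher by limma and 0 lower, where 3.17% of 10656 genes were called and 1.91% were called higher. At an unadjusted p under 0.05 there were 9 higher and 2 lower, where 18.6% of all genes had such a p in either direction. The 2 called were Dnaja1, which shrank from 0.34 to 0.20 (limma adjusted p = 0.0340), and Dnajb11, which went from 0.23 to 0.24 (limma adjusted p = 0.0204). Dnajb4 stood at 0.27 (limma adjusted p = 0.0741) and Dnajc9 at 0.25 (limma adjusted p = 0.154), so both kept most of their size. Dnaja2 (0.10), Dnajc8 (0.11) and Dnajc2 (0.13) kept less than 50% of theirs. Dnajb12 and Dnajc4 stood at -0.10 and -0.19 and no longer passed (limma adjusted p = 0.352 and 0.244).

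The same correction moved genes that were not called in both directions. Dnajb9 shrank from 0.25 to 0.04 (limma adjusted p = 0.822), Dnajc19 went from 0.08 to -0.13 and Dnajc3 from 0.03 to -0.08. Dnajb2, at 57.3% GC, went from -0.01 to 0.14, Dnajb1 from 0.08 to 0.14 and Dnajc7 from 0.11 to 0.12, while Dnaja4 stayed at 0.25. None of these passed after adjustment over all genes (limma adjusted p = 0.133, 0.239, 0.205 and 0.157). In the group for client folding in the cytosol and nucleus 8 of 9 values were then above 0, with a median of 0.14, and 6 of the 9 were higher at an unadjusted p under 0.05, where 10.0% of all genes were. In that fit the median was -0.08 for the ER members and -0.02 for the mitochondrial members. It was 0.09 for the genes of the ribosome, splicing and histones.

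**Figure D4:**
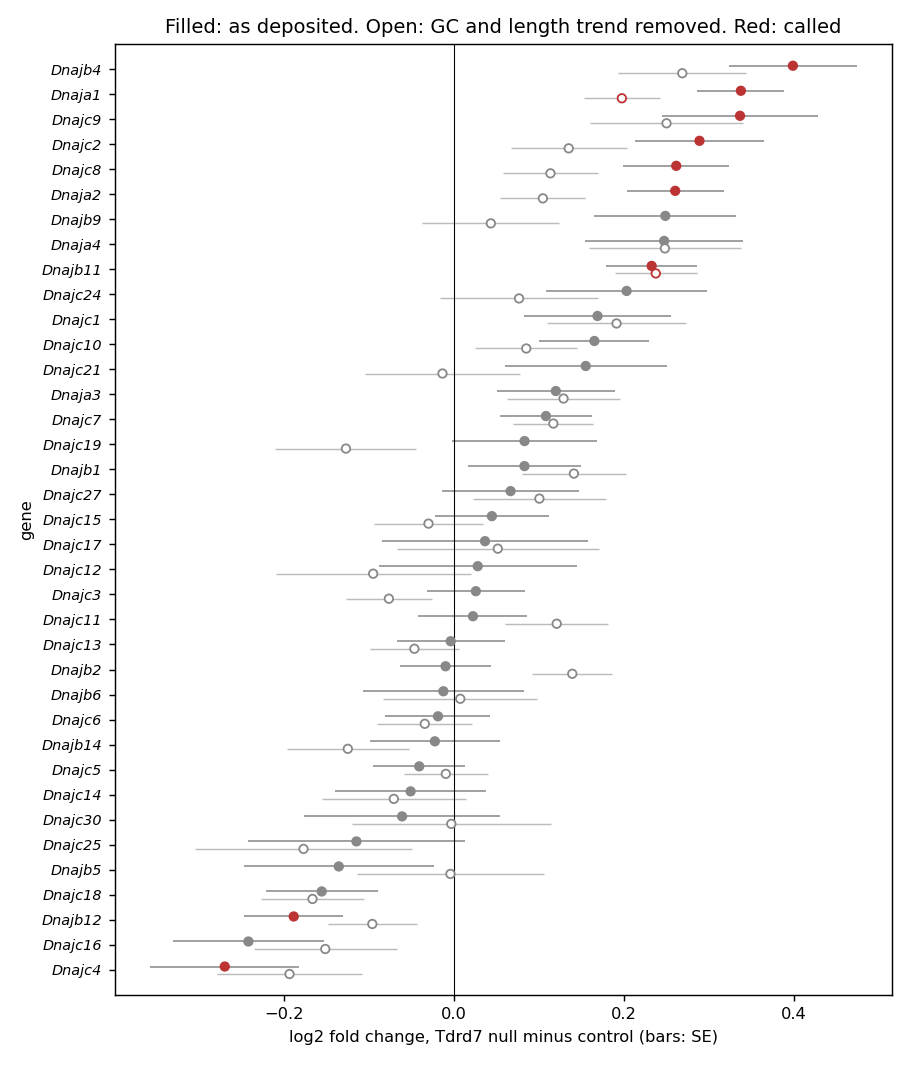
Log2 fold change (Tdrd7 null minus control) with its SE for the 37 DnaJ genes, from the values as deposited (filled) and with the GC and length trend removed (open), red where called at an adjusted p under 0.05. The 9 filled red points become 2 open red points, Dnaja1 and Dnajb11.

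Chromosome 4, which carries Tdrd7, holds 7 of the 37 members, where it holds 6.35% of all genes in the table. Dnajb5 lies 3.01 Mb from Tdrd7, Dnaja1 5.23 Mb and Dnajc25 12.96 Mb, and the other 4 (Dnajc6, Dnajc8, Dnajc16 and Dnajc11) lie at least 55.5 Mb away. Of these 7 genes Dnaja1 and Dnajc8 rose, where 10.1% of all genes did. These 2 have 41.2% and 44.2% GC, and 27.2% of all genes under 45% GC rose. The part of the position near the targeted allele was not tested.

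The libraries were made without strand, and 13 members share at least 100 nt of exon with another annotated gene, so their values are uncertain to that extent. Dnaja1 is the only called gene among them, sharing 608 nt with Smu1 on the opposite strand, and Smu1 was at 31.9 scaled reads on average with a log2 fold change of 0.13 (limma adjusted p = 0.150). Dnaja4 shares 1581 nt with Wdr61 on the opposite strand, which rose by 0.29 (limma adjusted p = 0.00797). Wdr61 was at 28.7 scaled reads on average, against 10.4 for Dnaja4. Dnajc19 shares 178 nt with the more abundant Fxr1, which rose by 0.20 (limma adjusted p = 0.0243). GENCODE also lists the pseudogenes Dnaja1-ps and Dnajc19-ps, with which reads of these genes could be shared.

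The partners of the DnaJ proteins in the Hsp70 cycle are the Hsp70s themselves, the Hsp110 proteins and other factors that exchange their nucleotide, further co-chaperones and the heat shock factors. Of 36 such genes 33 were measured, of which 8 rose and 3 fell, again beside 10.1% and 7.88% of all genes. Hspa1a, Hspa1b and Hspa1l, the inducible Hsp70s and a relative of them, were not analysed here. The median log2 fold change of the 33 genes was 0.01.

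Hspa5 was at 162 and 175 in control and at 213 and 225 in null lenses, which is 0.38 on the log2 scale (SE 0.0567, limma adjusted p = 0.00177), and it too was called with the GC and length trend removed, at 0.31 (limma adjusted p = 0.00964). Hspa5 was called in each of the 4 fits that left out a library, and Dnajb11 in 1 of them. Grpel1, the nucleotide exchange factor of mitochondrial Hsp70, rose by 0.27, the Hsp110 protein Hspa4 by 0.19, Hspa13 by 0.27 and the Hsp90 co-chaperone Chordc1 by 0.43 (limma adjusted p of 0.0217, 0.0219, 0.0147 and 0.00375). Hsf4, which drives fiber cell genes in the lens, fell by 0.27 on the log2 scale, Sgta by 0.22 and the ubiquitin ligase Stub1 by 0.22 (limma adjusted p of 0.00623, 0.0197 and 0.0199). With the GC and length trend removed Hspa5 was the only partner called. Grpel1 and Hspa4 then stood at 0.23 and 0.16, close to their size before, and Chordc1 at 0.20. Hspa13 shrank to 0.09, Hsf4 to -0.09, Sgta to -0.06 and Stub1 to -0.04.

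Hspa8, the constitutive Hsc70 of the cytosol and the main partner of Dnaja1, Dnaja2 and Dnajb1, was chosen after its values were seen. It was at 304 and 317 in control and at 311 and 192 in null lenses. Null replicate 2 alone was low. The log2 fold change of -0.34 (limma adjusted p = 0.118) became 0.00 without null replicate 2 and -0.69 without null replicate 1. Each of these fits leaves a single null library, so only the size is given. In null replicate 2 Dnaja1 and Dnaja2 were at their highest, while Dnajb1, at 215, was lower than in null replicate 1. Of the J proteins outside these names, Sec63, which works with BiP at the ER translocon, was at 34.8 and 32.1 in control and at 41.6 and 41.2 in null lenses and rose by 0.30 (limma adjusted p = 0.00686), while Gak and Hscb did not pass.

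The number of calls rested on single libraries and on the prior. Without control replicate 1, without control replicate 2 and without null replicate 2 the members called higher fell from 7 to 1, 2 and 2, the members called lower from 2 to 0 in each, and the partners called higher from 8 to 2, 3 and 2. Dnaja1 was called in each of the 4 fits that left out a library and Dnajb4 in 3 of them. Dnaja2, Dnajb11, Dnajc2, Dnajc8 and Dnajc9 were each called in 1 of the 4, and Dnajb12 and Dnajc4 in 0. With limma's prior fitted without the intensity trend 0 members were called, with 10 higher and 2 lower at an unadjusted p under 0.05.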

How the data were processed

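Whole lenses of 2 control and 2 Tdrd7 null pools were sequenced as poly(A) RNA with paired 75 nt reads from a TruSeq kit that does not mark strand, per the series' design text. Per the submitters' processing notes, Trimmomatic, TopHat2 2.0.9, Cufflinks and Cuffnorm were used, with the mm10 (GRCm38) build. The sources used here do not say how reads were counted and scaled. Deposited values are a signal per gene and library. Within a library each lay within 0.002 reads of a whole multiple of 1 step. They were therefore taken as read counts divided by 1 factor. The table holds no gene whose highest value is under 1.02 scaled reads. The value of 1 read was inferred and is stated nowhere, so the values were treated as normalized and no count model was run.

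The genotypes were compared on log2(scaled reads + 1), which understates changes of low genes, with limma 3.58.1 in R 4.3.3 (intensity-trended prior, two-sided, Benjamini-Hochberg adjustment) over all genes with a mean of at least 1. Called means an adjusted p under 0.05. The fit had 2 residual degrees of freedom, to which the prior added 11.1. The longest GENCODE M21 (GRCm38) transcript gave GC content and length for 10750 of the 10790 genes, all 37 members included. Their trends were removed per library with natural splines of 5 degrees of freedom each. Promoter windows are RefSeq's (GRCm38.p6). The fit was also run on simulated counts with the same assumed spread for every gene, and no result here rests on that run. Values in every library are given for called members, for the 3 with the highest level per kb in each family and for the 3 largest changes not called, and for others where a role group is described. Partners are the 8 called with the smallest p, and the role groups and lists cover the cytosol, ER, mitochondria, vesicles and ribosome. Members, lists and rules were chosen with earlier results of these data known. Alternatives were other pseudocounts, filters, scalings and priors, the replicate block, the GC and length correction, each library left out and a looser threshold.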

Additional observations from a re-analysis of the deposited data

How the results depend on the processing

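The main counts were 7 members higher and 2 lower, and 8 partners higher and 3 lower. A prior without the intensity trend gave 0 in each of the 4 counts, where 16 genes of the whole table were called against 1920 in the main analysis, and where limma gave 10 members higher and 2 lower and 8 partners higher and 3 lower at an unadjusted p under 0.05. With the GC and length trend removed, 2 members were higher and 0 lower, and 1 partner was higher and 0 lower. Adding the replicate block to that correction gave 2 and 0 members and 2 and 1 partners. Over the fits that left out 1 library, members ranged from 1 to 7 higher and from 0 to 1 lower, and partners from 2 to 8 higher and from 0 to 4 lower. The lone library of a genotype was there assumed to vary like the other genotype's. Over the whole table the GC and length correction left 338 calls, the fits without 1 library 431 to 2196, and the crossed pairing described next 3036. Median-ratio scaling left 1 member lower, and scaling without crystallins left 5 partners higher.

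The replicate numbers do not pair the samples by any label, and the replicate differences of the genotypes correlated at -0.15 over genes. With the replicate block alone 8 members were called higher and 2 lower, of which Dnaja4 and Dnajc16 were added and Dnajb12 was lost. Over the whole table that fit called 1144 genes higher and 973 lower, against 1077 and 843 in the main analysis. A crossed pairing, chosen after seeing the data, gave 10 and 3 members and 5 partners lower. Under the block limma's prior had infinite degrees of freedom. Over the 37 members, Tdrd7, the 8 called partners named and Hspa8, 89 values lost a call and 14 gained one over the alternatives, and 0 values of a called gene among them turned their sign. Other named genes were not followed through the alternatives. Tests with edgeR and DESeq2 were not run. TMM scaling, computed from its formula, gave factors of 0.99993 to 1.00004. Genes near 100 reads, such as Dnajb5, Dnajc12 and Dnajc30, had SEs of 0.112, 0.116 and 0.115 on the log2 scale, so a change as small as that of Dnajb12 (-0.19) was not detectable in them.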
